A study of Mus musculus with 2 samples.

Results

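The neuronal microRNAs miR-137, miR-153, miR-138, miR-9 and miR-124 are encoded in the mouse genome by 10 annotated hairpin genes, which were taken here as a fixed list by their GENCODE M21 symbols and Ensembl identifiers, out of 2202 microRNA genes in the count tables. Small RNA was sequenced from adrenal tissue labelled as that of 2 male mice, 36 days old, of the F1 hybrid B6CASTF1/J (C57BL/6J crossed with CAST/EiJ), with 1 library per animal number. Both libraries form a single group with no treatment and no second condition, so levels are described and every test sets replicate 1 against replicate 2. The labels number the animals separately but give the same donor record for both, so p-values measure only the difference between these libraries, which may be technical. Whether CAST/EiJ alleles at these hairpins changed mapping was not tested.

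MicroRNAs are cut from hairpin transcripts into arms that guide silencing of messenger RNAs, chiefly through the seed near the 5′ end. miR-124 and miR-9 are among the most abundant microRNAs of the brain, where miR-124 holds neurons in their differentiated state and miR-9 acts in neural progenitors and neurons. miR-137 and miR-138 are known from dendrites and synapses, and miR-153 from neurons and secretory cells. The adrenal gland joins a steroid-producing cortex to a medulla of chromaffin cells, which derive from the neural crest, store catecholamines in dense-core vesicles and are contacted by nerve endings.

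The mature sequences are shown because some are shared between genes, and reads with several places were assigned to no gene. RefSeq sequences (GRCm38.p6, the build also called mm10) were matched by symbol for 7 of the 10 genes. Mir124a-1, Mir124a-2 and Mir124a-3 had no match, so the sequence, seed and copies of miR-124 were not examined. The matched sequences are written 5′ to 3′ with the seed, bases 2 to 8, in capitals.
miR-137-3p: uUAUUGCUuaagaauacgcguag
miR-137-5p: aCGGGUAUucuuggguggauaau
miR-153-3p: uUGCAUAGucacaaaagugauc
miR-153-5p: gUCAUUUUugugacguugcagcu
miR-138-5p: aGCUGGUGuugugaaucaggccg
miR-138-1-3p: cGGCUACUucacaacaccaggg
miR-138-2-3p: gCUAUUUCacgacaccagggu
miR-9-5p: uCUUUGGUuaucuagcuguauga
miR-9-3p: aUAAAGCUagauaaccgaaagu

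No other mature microRNA in the RefSeq table shared a 7-base seed with any of these 9 sequences, so within that table they form no common seed group. Both arms of Mir137 and both arms of Mir153 were found by exact match at 1 locus among all annotated microRNA hairpins. miR-138-5p was found at 2 loci, Mir138-1 and Mir138-2, while the 3p arm of each was found at 1 locus. miR-9-5p and miR-9-3p were each found at 3 loci, so Mir9-1, Mir9-2 and Mir9-3 had no arm of their own. The search covered annotated microRNA hairpins on both strands and not the rest of the genome.

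The hairpins of the genes with copies show where the copies part, with the mature arms in capitals.
Mir138-1 hairpin: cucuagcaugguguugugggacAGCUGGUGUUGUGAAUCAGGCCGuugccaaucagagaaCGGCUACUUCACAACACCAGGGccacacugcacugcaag
Mir138-2 hairpin: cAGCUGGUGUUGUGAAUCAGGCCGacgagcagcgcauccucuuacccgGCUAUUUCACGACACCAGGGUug
Mir9-1 hairpin: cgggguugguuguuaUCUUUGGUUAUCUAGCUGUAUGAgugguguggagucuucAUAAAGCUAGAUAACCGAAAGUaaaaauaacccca
Mir9-2 hairpin: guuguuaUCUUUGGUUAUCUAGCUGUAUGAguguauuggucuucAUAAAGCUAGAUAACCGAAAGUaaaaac
Mir9-3 hairpin: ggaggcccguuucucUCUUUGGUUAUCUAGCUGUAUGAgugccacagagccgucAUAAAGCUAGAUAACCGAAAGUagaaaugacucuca

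Beyond its 3′ end, the shared miR-138-5p has 0 bases in common between Mir138-1 and Mir138-2, and 1 base before its 5′ end. A read of this arm extended by a single base at its 3′ end would therefore differ between the 2 genes. After the 3′ end of miR-9-5p, 3 further bases are the same in all 3 Mir9 hairpins, and Mir9-1 and Mir9-2 also share 7 bases before it and 5 bases after miR-9-3p. Of all 22-base stretches, those found at 1 locus were 52 of 52 in Mir137, 48 of 48 in Mir153, 75 of 78 in Mir138-1 and 47 of 50 in Mir138-2. In Mir9-1, Mir9-2 and Mir9-3 they were 44 of 68, 27 of 51 and 60 of 69, and none of them lay within a mature arm.

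**Figure D1:**
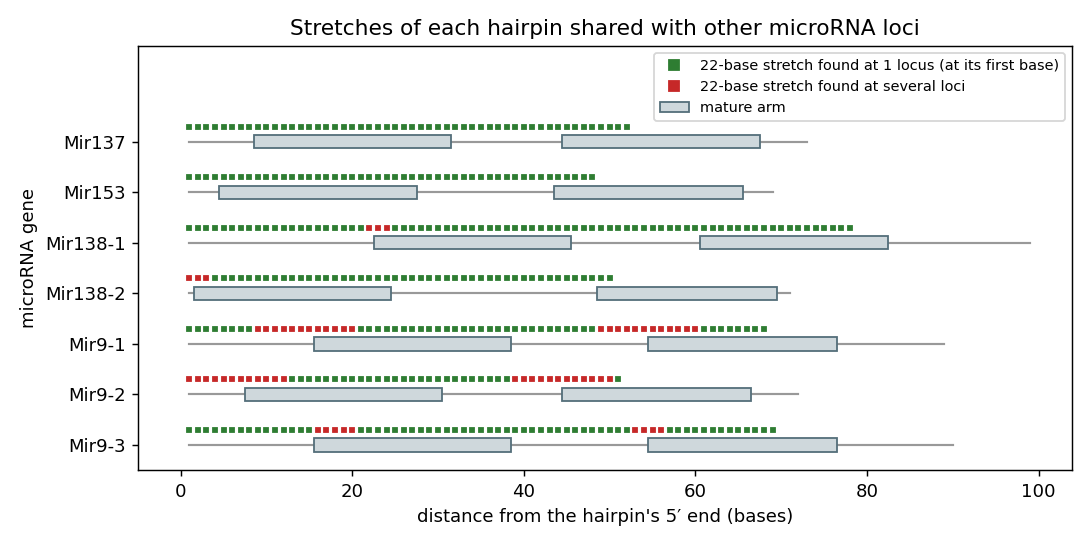
Each line is a hairpin drawn from its 5′ end (x axis, bases), boxes are the mature arms, and each square marks the first base of a 22-base stretch found at 1 locus (green) or at several microRNA loci (red). Mir137 and Mir153 have no red square, the pair Mir138-1 and Mir138-2 have 3 each at the 5p arm, and the Mir9 hairpins have red squares at both arms.

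In mm10, Mir137 (ENSMUSG00000065569.2) lies at chr3:118433857-118433929 and overlaps an exon of the long noncoding gene Gm26871. Mir153 (ENSMUSG00000065538.1) lies at chr12:117250817-117250885 in an intron of Ptprn2, on the same strand, and opposite an intron of the antisense gene Gm5441. Ptprn2 encodes a membrane protein of dense-core vesicles in neuroendocrine cells. Mir138-1 (ENSMUSG00000065414.1, chr9:122682876-122682974) overlaps an exon of the pseudogene Gm47135, and Mir138-2 (ENSMUSG00000065512.3, chr8:94324311-94324381) an exon of the long noncoding gene C78859. Mir9-1 (ENSMUSG00000106493.1, chr3:88215598-88215686) lies in an intron of the noncoding gene Gm3764, with the microRNA gene Gm25641 on the opposite strand. Mir9-2 (ENSMUSG00000065424.2, chr13:83738814-83738885) overlaps an exon of C130071C03Rik, and Mir9-3 (ENSMUSG00000093238.1, chr7:79505264-79505353) lies in an intron of Mir9-3hg. Mir124a-1 (ENSMUSG00000065597.1, chr14:64590657-64590741), Mir124a-2 (ENSMUSG00000093073.1, chr3:17795662-17795770) and Mir124a-3 (ENSMUSG00000065454.2, chr2:180894040-180894107) each overlap an exon of a long noncoding gene, Mir124a-1hg, Mir124-2hg and Gm27032. All 10 genes lie on the plus strand, and none had a count on the opposite strand in either library.

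The libraries had gene counts, on the sense strand, of 4494857 in replicate 1 and 2078824 in replicate 2. A further 29.8% and 21.5% of all reads mapped to several places and were assigned to no gene, and 26.4% and 51.9% were unmapped. Levels are gene counts scaled to a library total of 1000000 (CPM), not by length, as each mature arm is a short RNA of 21 to 23 bases. Where a gene had 0 counts, the limit of 3 counts equals 0.667 CPM in replicate 1 and 1.44 CPM in replicate 2. These limits and all intervals cover counting error only, since copies made by PCR cannot be told from separate molecules, and they concern reads that map to 1 place.

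The 10 genes together took a mean of 0.0691% ± 0.0380 (SD, n = 2) of all gene counts. The share was 0.0960% in replicate 1, with a 95% binomial interval (Clopper-Pearson) of 0.0931 to 0.0989, and 0.0423% in replicate 2, with an interval of 0.0395 to 0.0452. Mir137 made up 80.7% and 80.2% of that in replicates 1 and 2. Gene counts leave out reads with several places. This affects miR-138-5p and both miR-9 arms, but no Mir137 arm among microRNA loci. The makeup is therefore not that of all reads of these microRNAs. Only Mir137, Mir153, Mir138-1 and Mir138-2 had 10 or more counts in both libraries, and 5 of the 10 genes had none in either.

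Mir137 was the highest of the 10 genes in both libraries, with 3483 counts in replicate 1 and 705 in replicate 2. These equal 775 CPM (interval 749 to 801) and 339 CPM (315 to 365), a mean of 557 ± 308 CPM (SD, n = 2). It ranked 92 among 696 genes with counts in replicate 1 and 133 among 624 in replicate 2. Mir137 therefore stood in the upper part of the counted genes in both libraries, with a 2.28-fold higher CPM in replicate 1.

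Mir153 had 572 and 55 counts, or 127 CPM (117 to 138) and 26.5 CPM (19.9 to 34.4) in replicates 1 and 2. Its mean of 76.9 CPM had an SD of 71.3 CPM (n = 2), nearly as large as the mean. It stood next below Mir137 in replicate 1, and below both Mir137 and Mir138-1 in replicate 2.

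Mir138-1 had 200 and 100 counts, or 44.5 CPM (38.5 to 51.1) and 48.1 CPM (39.1 to 58.5), a mean of 46.3 ± 2.55 CPM (SD, n = 2). Mir138-2 had 56 and 19 counts, or 12.5 CPM (9.41 to 16.2) and 9.14 CPM (5.50 to 14.3), a mean of 10.8 ± 2.35 CPM. Both miR-138 genes had intervals that overlap between the libraries. Summed, they stood at 57.0 and 57.2 CPM. Reads of miR-138-5p that end within its 23 bases match both loci, and reads with several places were assigned to no gene. The levels and their sum therefore leave such reads out and give no total for miR-138. The split between the 2 genes is uncertain, and counts per hairpin do not say which arm was read.

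By mean level the order was Mir137, Mir153, Mir138-1 and Mir138-2. Mir137 was above each of the other genes in both libraries, with intervals apart, and so was Mir138-1 above Mir138-2. Mir153 and Mir138-1 changed places between the libraries, so their order was not resolved.

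Mir9-1 had 3 counts in replicate 1 (0.667 CPM, 0.138 to 1.95) and 0 in replicate 2. In the column that ignores strand these 3 reads were not assigned to Mir9-1, which overlaps Gm25641 on the opposite strand. Mir9-2 and Mir9-3 had 0 counts in both libraries. So did Mir124a-1, Mir124a-2 and Mir124a-3. These zeros hold for reads that map to 1 place. How many of the 3664429 and 2220642 reads with several places belong to miR-9 or miR-124 was not analysed here, so their absence from the gland cannot be read from these counts.

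**Figure D2:**
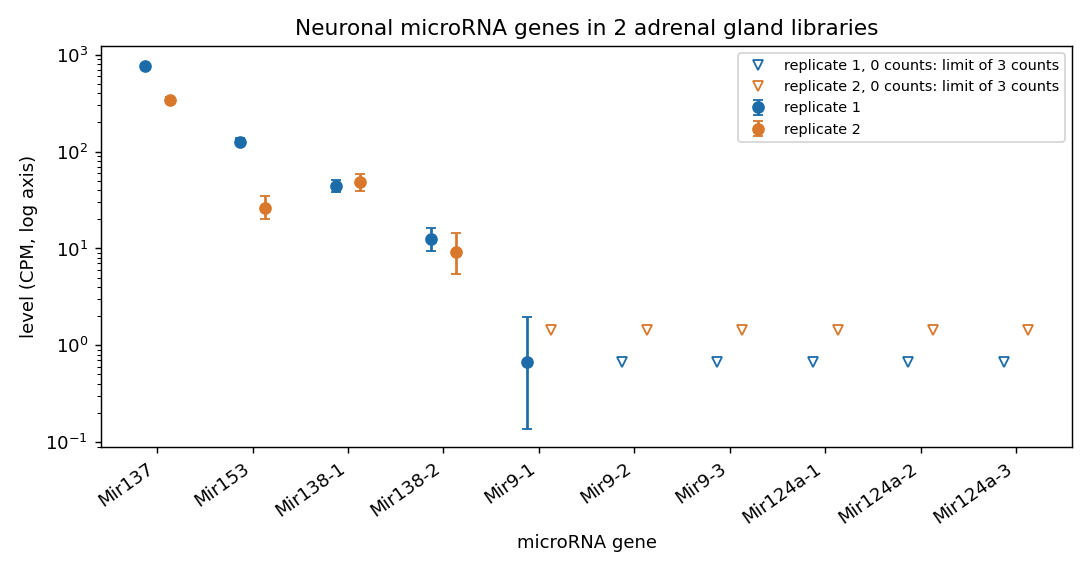
Level of each neuronal gene (y axis, CPM, log scale) in replicate 1 (blue) and replicate 2 (orange), with exact 95% intervals. Open triangles mark genes with 0 counts at the limit of 3 counts, 0.667 and 1.44 CPM, and only Mir137, Mir153 and the Mir138 pair stand above it in both libraries.

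Genes without counts were also counted by the copies of their arms, for the 1018 of the 2202 genes with a matched mature sequence. Mir124a-1, Mir124a-2 and Mir124a-3 were not among the 1018. Only arms listed in the RefSeq table were searched, and some genes had only 1 listed. Of 907 genes whose arms were all found at 1 locus, as for Mir137 and Mir153, 35.4% had 0 counts in both libraries. Of 61 genes with some arms at several loci, as for Mir138-1 and Mir138-2, it was 19.7%, and of 50 genes with all arms at several loci, as for Mir9-1, Mir9-2 and Mir9-3, it was 80.0%. With fewer than 10 counts in both libraries in place of 0, these shares were 66.4%, 29.5% and 88.0%, so the first and last lay closer together. Shared listed arms did not always mean no counts, since 6 of these 50 genes had 10 or more in both libraries. Among them was Mirlet7c-2 of the let-7 family, with 2 listed arms and 6615 and 3522 counts. Mir129-1, Mir199b and Mir3074-1, also among the 6, had only 1 arm listed. Whether their counts came from an arm that was not searched was not tested. The 50 genes were unlike in copies, with an arm at 86 loci for Mir680-1 against 3 for the Mir9 genes. No test was made of the difference between the groups of genes by copies of their arms.

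Between the libraries, Mir137 and Mir153 were higher in replicate 1, and neither Mir138 gene passed the test. After TMM scaling, which sets the bulk of genes equal, Mir137 had a log2 ratio of replicate 2 over replicate 1 of -1.38 (95% counting interval -1.50 to -1.26), or 2.60-fold more in replicate 1. Mir153 had a log2 ratio of -2.45 (-2.88 to -2.05), or 5.47-fold more in replicate 1. By a two-sided exact binomial test of the counts with Benjamini-Hochberg adjustment over 333 genes, the adjusted p was 2.85e-142 for Mir137 and 1.21e-50 for Mir153. Mir138-1 had a log2 ratio of -0.07 (-0.43 to 0.28, adjusted p = 0.742 by the same exact test) and Mir138-2 of -0.63 (-1.47 to 0.14, adjusted p = 0.137).

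The binomial test takes counting noise as its only error and passed 78.1% of the 333 genes that had 10 or more counts in both libraries. Those higher in replicate 1 were 38.7% and those higher in replicate 2 were 39.3%, 129 and 131 genes, which DESeq2 size factors turned to 157 and 97. Against that background, 2 of the 4 measured neuronal genes passed, both higher in replicate 1, and the median log2 ratio of the 4 was -1.005 against 0.01 over all 333. In the edgeR exact test, with a common dispersion estimated from the same 2 libraries (a biological coefficient of variation of 52.7%), 0.601% of genes passed and no neuronal gene did. Its adjusted p was 0.988 for Mir137 and 0.768 for Mir153, with 1 of the 4 genes, Mir153, at an unadjusted p under 0.05 (0.0392). The differences tested also set that dispersion, so few genes could pass. Not passing it is therefore no sign of equal levels, here or for the lists below. Over all 333 genes, 17 had an unadjusted p under 0.05 in the same edgeR test. Of the 333 genes, Mir153 had the fifth-lowest log2 ratio and Mir137 the rank of 16, so 1.50% and 4.80% of genes lay at least as far toward replicate 1.

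**Figure D3:**
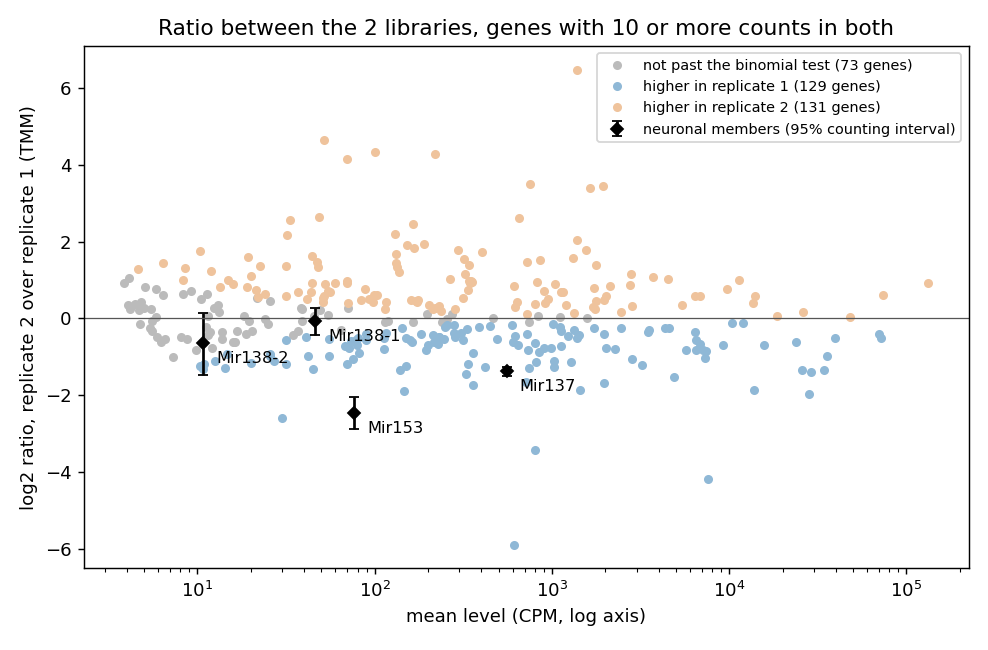
Log2 ratio of replicate 2 over replicate 1 after TMM scaling (y axis) against mean level (x axis, CPM, log scale) for 333 genes, coloured by the binomial test, with the 4 neuronal genes as black diamonds and their 95% counting intervals. Mir153 at -2.45 and Mir137 at -1.38 lie below the line of no difference and the intervals of both Mir138 genes cross it.

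Ratios between neuronal genes within a library need no scaling. Mir137 had 6.09 times the counts of Mir153 in replicate 1 (exact interval 5.57 to 6.66) and 12.8 times in replicate 2 (9.73 to 17.2). Mir137 had 17.4 times the counts of Mir138-1 in replicate 1 (15.1 to 20.2) and 7.05 times in replicate 2 (5.71 to 8.78). The Mir138-1 counts leave out reads of miR-138-5p that match both loci, whereas both arms of Mir137 were found at 1 microRNA locus. Mir138-1 had 3.57 times the counts of Mir138-2 in replicate 1 (2.64 to 4.89) and 5.26 times in replicate 2 (3.20 to 9.11), and these intervals overlap. The ratios of Mir137 to Mir153 and to Mir138-1 differed between the libraries by more than counting error, the only error these intervals hold. Whether they differed by more than the spread between animals was not tested.

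Genes were also ranked by how near their log2 ratio was to that of each neuronal gene, among genes with a mean CPM within 2-fold of it. With 2 libraries, such likeness rests on a single ratio and is only a description. For Mir137 the nearest of 63 genes were Mir16-2, Mir92-1 and Mir598, with log2 ratios of -1.45, -1.29 and -1.27. For Mir153 the nearest of 68 genes were Mir1843b (-1.88), Mir467e (-1.34) and Mir128-1 (-1.31), all nearer to 0 than Mir153 itself. For Mir138-1 the nearest of 63 were Mir218-2 (-0.06), Mir6516 (-0.02) and Mir493 (-0.14), and for Mir138-2 the nearest of 55 were Mir325, Mir701 and Mir702, at -0.62, -0.61 and -0.61.

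Other microRNAs known from neurons, 8 genes in all, had mean levels from 2.59 CPM (Mir128-2) to 1547 CPM (Mir132). Of these, 7 had 10 or more counts in both libraries, of which 4 were higher in replicate 2, 1 was higher in replicate 1 and 2 did not pass the exact binomial test. That 5 of 7 passed is near the background of 78.1% over all genes tested, and no gene of this list passed the edgeR exact test. Mir132 and Mir212, a pair induced by neuronal activity and by cyclic AMP, stood at 629 and 2465 CPM and at 42.3 and 219 CPM in replicates 1 and 2. Mir129-2 stood at 65.9 and 268 CPM and Mir129-1 at 8.68 and 58.2 CPM. The split between such numbered copies is uncertain, as reads with several places were assigned to no gene. Mir128-1, a brain-enriched gene, was the gene higher in replicate 1, with 61.8 and 28.4 CPM, and its log2 ratio of -1.31 was near that of Mir137. Mir218-2 stood at 37.2 and 40.4 CPM and Mir218-1 at 8.90 and 7.22 CPM, and Mir128-2 had 19 and 2 counts. In replicate 1 the 8 genes summed to 858 CPM, close to the 960 CPM of the 10 neuronal genes, and in replicate 2 to 3087 CPM against 423 CPM. Mir132 alone made up most of the sum of the 8 genes in both libraries. Both sums hold only reads that map to 1 place, so they are not totals of these microRNAs.

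As a sum, the medulla and neuroendocrine list was far above the neuronal genes, but not gene by gene. Its 7 genes summed to 4.97% and 5.48% of the gene counts, nearly all of it Mir375, known from endocrine cells, at 44147 and 51780 CPM. Mir375 had 57.0 times the counts of Mir137 in replicate 1 (55.1 to 58.9) and 153 times in replicate 2 (142 to 165). Mir7b, a neuroendocrine gene, stood at 4326 and 2129 CPM, a log2 ratio of -1.21. Its ratio to Mir137 was 5.58 in replicate 1 (5.38 to 5.79) and 6.28 in replicate 2 (5.80 to 6.81). Mir182, of a cluster known from sensory cells, stood at 756 and 538 CPM, near Mir137 in replicate 1. Mir7-1 (233 and 165 CPM), Mir7-2 (96.3 and 83.2), Mir183 (89.0 and 68.8) and Mir96 (6.45 and 17.3) were below Mir137 in both libraries. These levels hold only reads that map to 1 place. The cluster of Mir182 was split, with log2 ratios of -0.68 for Mir182, -0.56 for Mir183 and 1.24 for Mir96. All 7 genes of the list passed the exact binomial test, with 5 toward replicate 1 and 2 toward replicate 2, beside the background of 78.1% passing. The split was 6 and 1 with DESeq2 size factors, and 4 and 2 with library size scaling, where Mir7-2 did not pass (exact binomial test, adjusted p = 0.130). None of the 7 passed the edgeR exact test. The sign of Mir375 depended on the scaling, with log2 ratios of 0.04 with TMM, -0.21 with DESeq2 size factors and -0.38 with a correction for base composition.

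Of the glia and Schwann cell list, 4 genes were in the tables and 2 had 10 or more counts in both libraries. Mir338, known from myelinating glia, stood at 253 and 257 CPM and Mir219a-1 at 18.5 and 11.1 CPM. Both passed the exact binomial test as higher in replicate 1, with log2 ratios of -0.16 and -0.92 after TMM scaling. Over all genes tested 78.1% passed, 38.7% as higher in replicate 1, and neither glia gene passed the edgeR exact test. With library size scaling Mir338 turned to 0.02 and did not pass. Mir219a-2 had 5 and 0 counts and Mir219b none. In a bulk gland, fewer cells of a type and less RNA per cell cannot be told apart, and the counts do not say whether a neuronal microRNA came from medulla cells or from nerves.

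**Figure D4:**
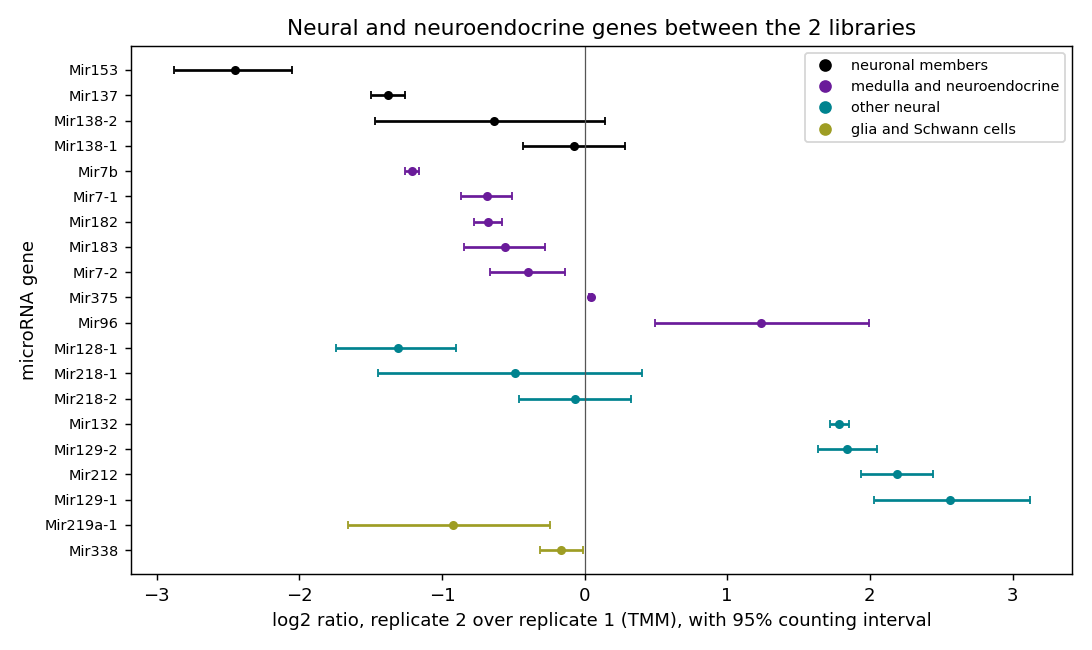
Log2 ratio of replicate 2 over replicate 1 after TMM scaling (x axis) with 95% counting intervals for the measured neuronal genes (black), medulla and neuroendocrine genes (purple), other neural genes (teal) and glia genes (olive). Mir153, Mir137, Mir128-1 and Mir7b lie at -1.21 or below and Mir132, Mir129-2, Mir212 and Mir129-1 at 1.79 or above, while the signs of Mir138-1, Mir218-2 and Mir338 turn with library size scaling and that of Mir375 with DESeq2 size factors or the base composition correction.

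Markers of other cell types also differed between the libraries, and their part in the difference of Mir137 and Mir153 was not tested. All 5 epithelial miR-200 genes were higher in replicate 2, with a sum of 64.7 and 3576 CPM, led by Mir200c, Mir200b and Mir429. The 3 pancreas acinar genes, Mir217, Mir216b and Mir216a, were at 0 in replicate 1 (limit of 3 counts 0.667 CPM) and summed to 326 CPM in replicate 2. Of the 3 erythroid genes, Mir451a and Mir144 were higher in replicate 1 and Mir486 did not pass, with a sum of 15841 and 1091 CPM. The endothelial genes Mir126a and Mir126b summed to 74841 and 64797 CPM, the smooth muscle genes Mir143 and Mir145a to 46611 and 30221 CPM, and the leukocyte genes Mir150, Mir142 and Mir223 to 1385 and 1617 CPM. Within these sums genes went opposite ways, with log2 ratios of -0.97 for Mir143 and 1.17 for Mir145a, and of 0.40 for Mir150, -0.52 for Mir142 and -0.56 for Mir223. Of 6 striated muscle genes, Mir499 and Mir206 had under 10 counts in at least 1 library, and the 4 Mir1a and Mir133a genes had 0 counts in both. These muscle zeros, too, hold only for reads that map to 1 place. Hairpin base composition moved with the ratio as well, at 0.0265 log2 units per percent of G and C over the 333 genes, and the hairpins hold 45.2% G and C in Mir137, 42.0% in Mir153, 54.5% in Mir138-1 and 57.7% in Mir138-2. With a linear correction for it, Mir137 stood at -1.22 and Mir153 at -2.21, and Mir138-2 passed the exact binomial test at -0.81 (adjusted p = 0.0420).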

How the data were processed

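Raw read counts per annotated microRNA gene were deposited by the authors, 1 table per library, with a column that ignores strand and 1 for each strand. Assembly mm10 and annotation M21 are named in the text deposited beside the tables. Which aligner and counter were run is not given in the sources used here. Each of the 2202 gene identifiers matched GENCODE M21. Of the strand columns, the third column of the tables, with the larger gene total, served as sense. Unmapped reads, reads with several places and reads outside genes (26.4%, 29.8% and 7.16% in replicate 1, 51.9%, 21.5% and 6.46% in replicate 2) name no gene and stayed out of library sizes.

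CPM values are sense counts scaled to 1000000 over all genes. Genes reaching 10 counts in each library were tested against the ratio of TMM-scaled library sizes by a two-sided exact binomial test, with Benjamini-Hochberg adjustment at 0.05 across all genes tested; log2 ratios used no pseudocount. The test was checked on data simulated with counting noise as the only error, which cannot show how it behaves with the wider spread between these libraries. The edgeR exact test and DESeq2 size factors were alternatives, and a correction for hairpin GC content was added after seeing the data. The genes and lists were chosen with earlier results of these data known. Named are the 10 genes, the 3 highest genes of each list, neural and glial genes with 10 or more counts in either library, and the 3 genes nearest in ratio; others were named after their values were seen. Software: R 4.3.3, edgeR 4.0.16, DESeq2 1.42.0, Python 3.11.15, SciPy 1.17.1, pandas 2.3.3 and matplotlib 3.10.9.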

Additional observations from a re-analysis of the deposited data

How the results depend on the processing

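Mir137 and Mir153 were higher in replicate 1 with library size or DESeq2 scaling, with count minimums of 5, 50 and none, in the strand-blind column and with the GC correction; log2 ratios ran from -1.63 to -1.19 for Mir137 and from -2.71 to -2.21 for Mir153. The edgeR exact test, whose dispersion came from the same difference it tests, passed 0 of the 4 measured neuronal genes in place of 2. Mir138-1 turned to 0.11 with library size scaling, and Mir138-2 passed with DESeq2 size factors (-0.89) and with the GC correction (-0.81). Against the bulk of genes these scalings differed, as the median log2 ratio of all genes was 0.19 with library size and -0.25 with DESeq2 size factors. The share of the 10 genes, 0.0691%, was 0.0218% of all reads in the files, whose larger total includes unmapped reads, and 0.0423% to 0.0960% with either library alone. Single libraries moved the levels of Mir137 and Mir153 from 339 to 775 CPM and from 26.5 to 127 CPM. With fewer than 10 counts in both libraries in place of 0, the share of uncounted genes was 66.4% (from 35.4%) where all listed arms were at 1 locus. It was 29.5% (from 19.7%) where some listed arms were at several loci and 88.0% (from 80.0%) where all were. A ratio could not be had without either library, and the search of mature sequences in the whole genome was not run. No paired analysis was possible because there is 1 group.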
